A study of Mus musculus with 16 samples.

Results

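The genes described here are the nuclear-encoded genes of the mitochondrial respiratory chain and the ATP synthase, in B cells of the mouse spleen, both follicular (FO) and those of the marginal zone (MZ). They were found by the start of the symbol, with Nduf for complex I, Sdh for complex II, Uqcr for complex III, Cox for complex IV and Atp5 for complex V. Of 93 symbols that matched, 9 with -ps in the name were left out, 3 had a mean normalized count under 10 over the 8 libraries, and 81 remained as members, of 27928 genes in all. The members were chosen by their names and by that mean, and the mean was the only measured value used. By the start of the symbol they comprised 38 genes of complex I, 4 of complex II, 8 of complex III, 14 of complex IV and 17 of complex V. A symbol need not name the complex that holds the protein. Whether each member, Ndufa4 and Cox7a2l among them, sits in the complex of its symbol was not checked. Among them Ndufa11b, Ndufs6b and Cox6c2 are annotated as processed pseudogenes, which the rule kept because their symbols lack -ps.

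FO B cells (sorted as CD21lo CD23hi) and MZ B cells (sorted as CD21hi CD23lo) came from C57BL/6 mice of 8 to 12 weeks, either WT or Gtf2i fl/fl with a Cre active in B cells (cKO). In the cKO both floxed alleles of Gtf2i, which encodes the transcription factor TFII-I, were deleted by a Cre under a B cell promoter, so the deletion was confined to the B lineage by design. RNA was depleted of ribosomal RNA and sequenced in 2 libraries for each of the 4 groups (WT FO, WT MZ, cKO FO and cKO MZ). The labels do not say that the libraries of a group came from separate animals, so a p-value here measures the spread between these libraries. That spread may be only technical in WT FO, WT MZ and cKO MZ. The 2 cKO FO libraries held different RNA, by the sex-linked genes given below.

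The respiratory chain passes electrons from NADH and succinate to oxygen and pumps protons across the inner mitochondrial membrane, and the ATP synthase uses the return of those protons to make ATP. Complex I takes electrons from NADH, complex II from succinate, complex III hands them from ubiquinol to cytochrome c, and complex IV reduces oxygen. All but complex II also hold subunits made from the mitochondrial genome. Resting B cells are small cells with a modest energy demand, and respiration rises when B cells are activated.

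The 8 libraries held between 21546552 and 25083552 reads on genes. Cr2 (CD21) and Fcer2a (CD23), the genes behind the sort, followed the labels in all libraries, with 86952.6 to 97086.7 normalized counts of Cr2 in MZ and 22942 to 26803 in FO B cells, and 24802 to 41973 of Fcer2a in FO and 3069 to 6708 in MZ B cells. Gtf2i ran from 1992 to 2864 normalized counts in the WT and from 1523 to 1889 in the cKO libraries, a log2 difference of -0.47 (standard error 0.067, limma adjusted p = 0.0793). These counts cover the whole gene, with deleted and kept exons summed. Xist, the RNA that silences an X chromosome in female cells, ran from 25929.5 to 47002 normalized counts in WT, 14748 in the first cKO FO library and no higher than 89.7 in the remaining cKO, while Ddx3y, on the Y chromosome, did not exceed 6.34 in WT and reached 2682 or more in every cKO library. Genotype and sex-linked expression therefore cannot be told apart in any comparison of cKO with WT. Library cKO FO replicate 1 carried both kinds of transcript. Xist was 67.4 in cKO FO replicate 2, so these 2 libraries did not hold the same RNA. In cKO MZ it was 89.7 and 21.7. Comparisons of FO with MZ in cKO, and with both genotypes together, therefore carry an imbalance in sex-linked transcripts too.

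Expression was compared with limma on log2(normalized count + 1), with all 8 libraries in the model, over 14761 genes with a mean of at least 10, with Benjamini-Hochberg adjustment over all of them. The calling rule, with the cutoffs of the study, needed a difference of 1.5-fold or more and an adjusted p no higher than 0.05. A second rule used that adjusted p alone. Fold changes on this scale understate the change of genes with low counts.

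Among the members, 6 were lower in FO than in MZ B cells with both genotypes fitted together, all by less than 1.5-fold: Ndufa10, Ndufa8 and Ndufc2 of complex I, Sdhd of complex II, and Atp5pb and Atp5g2 of complex V. No other gene of the list passed the adjusted p in that comparison, and no member passed it between cKO and WT. The 120 bases that lead up to the start site of each of the 6 are shown here, as the regulatory sequence next to the start of the members that differed between the subsets. They are from RefSeq for build GRCm38.p6, written 5′ to 3′ on the strand of the gene up to the base before the start, and capitals mark matches to the motifs described next. For Atp5g2, Atp5pb, Ndufa10 and Ndufa8 the RefSeq start lies inside the gene as GENCODE draws it.
Ndufa10 (chr1:92473759-92473878, minus strand): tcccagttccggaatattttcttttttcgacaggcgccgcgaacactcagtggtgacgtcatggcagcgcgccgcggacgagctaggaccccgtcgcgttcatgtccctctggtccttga
Ndufa8 (chr2:36049339-36049458, minus strand): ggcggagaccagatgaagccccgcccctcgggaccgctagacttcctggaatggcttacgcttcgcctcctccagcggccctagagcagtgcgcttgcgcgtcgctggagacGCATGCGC
Ndufc2 (chr7:97399883-97400002, plus strand): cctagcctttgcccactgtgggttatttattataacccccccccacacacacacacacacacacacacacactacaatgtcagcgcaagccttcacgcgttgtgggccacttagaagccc
Sdhd (chr9:50603850-50603969, minus strand): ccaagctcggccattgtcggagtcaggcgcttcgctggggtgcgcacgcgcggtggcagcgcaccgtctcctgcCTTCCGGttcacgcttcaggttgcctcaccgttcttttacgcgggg
Atp5pb (chr3:105959264-105959383, minus strand): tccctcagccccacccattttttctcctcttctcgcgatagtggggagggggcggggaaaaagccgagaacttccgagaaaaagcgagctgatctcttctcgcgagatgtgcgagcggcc
Atp5g2 (chr15:102671048-102671167, minus strand): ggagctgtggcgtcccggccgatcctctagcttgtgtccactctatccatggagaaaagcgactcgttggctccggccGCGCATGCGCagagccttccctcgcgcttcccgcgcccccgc

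The promoters of respiratory chain genes are known for sites of NRF1 and of the ETS factor GABP. Windows of 250 bases before the start were found by symbol in the RefSeq tables for 66 of the 81 members and searched on both strands. The letters GCGCATGC, the core of the NRF1 site, were in 8 of the 66 windows (12.1%), against 2.25% of all 32817 windows in those tables, which include windows of noncoding genes. The ETS core CCGGAAG was in 11 (16.7%, against 6.9% of all windows), the CCAAT box CCAAT in 29 (43.9%, against 33.8%), the TATA letters TATAAA in 6 (9.09%, against 12.4%) and the YY1 core AAGATGGC in 0 (against 1.56%). Median G and C content of the 250 bases was 56.2% in the members and 52.4% in all windows. Of the 6 members shown above, Atp5g2 and Ndufa8 held the NRF1 letters (in Atp5g2 the palindrome gives overlapping matches on both strands), Sdhd held the ETS letters, and Ndufc2 held CCAAT farther from its start than the bases shown. Ndufa10 and Atp5pb matched none of the 5 motifs. A match is a description of letters and does not show that a factor binds.

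Levels between genes are compared per kilobase of exon, as the mean normalized count of the 8 libraries divided by the length of all annotated exons. Complex I had the lowest median, 490 per kb, against 1058 for complex II, 938 for complex III, 958 for complex IV and 870 for complex V. Within complex I, Ndufb11, a subunit of the membrane arm, was the highest at 2094 per kb. Ndufa11b, a copy of Ndufa11 annotated as a processed pseudogene, was the lowest at 27.7 per kb. In complex II the flavoprotein Sdha stood highest at 1430 per kb and the membrane anchor Sdhc lowest at 295 per kb. Uqcrh, the hinge protein next to cytochrome c1, led complex III at 3047 per kb, with Uqcrb lowest at 434 per kb. Cox8a, a small subunit of cytochrome c oxidase, led complex IV at 3819 per kb, and Cox6b2, the testis form of Cox6b1, was lowest at 12.1 per kb. In complex V the catalytic-head subunit Atp5a1 was highest at 3698 per kb and Atp5g1 lowest at 52.6 per kb. Annotated exons that are rarely used make this length too long for some genes. With the length of the principal transcript in its place, which 75 members have, the medians were 883 per kb for complex I, 1476 for II, 1509 for III, 1944 for IV and 1677 for V, so complex I was again lowest, and the leading genes became Ndufa6, Sdha, Uqcrh, Cox4i1 and Atp5b.

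**Figure D1:**
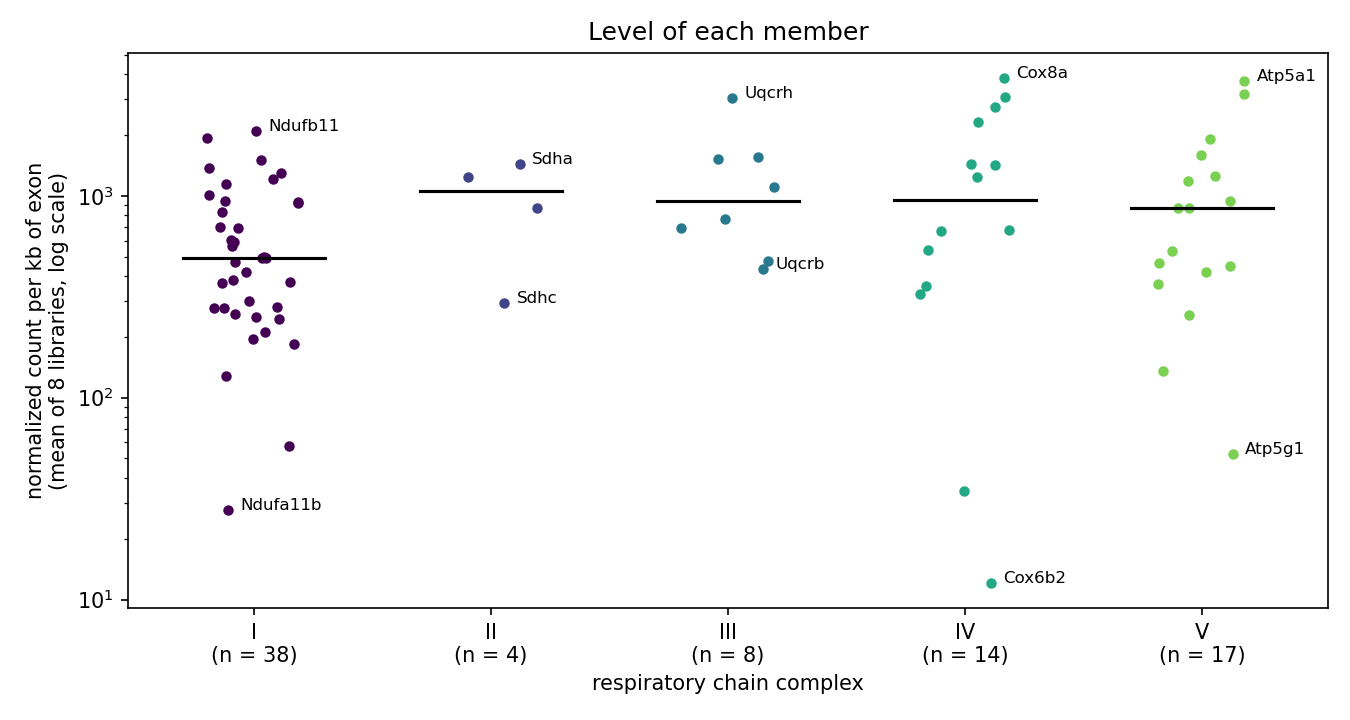
Level of each of the 81 members by complex, as the mean normalized count of the 8 libraries per kb of exon on a log scale, with a line at the median and the highest and lowest gene of each complex named. Below the rest of their complexes stood Ndufa11b (27.7 per kb), Cox7a1 (34.6 per kb), Cox6b2 (12.1 per kb) and Atp5g1 (52.6 per kb).

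Some of these subunits exist in paired forms, of which one is kept for muscle, testis or hypoxia. In these B cells the common form was the abundant one in each pair. Cox7a2 stood at 1429 per kb and the related Cox7a2l at 1415 per kb, against 34.6 per kb for the muscle form Cox7a1. Cox6b1 stood at 2762 per kb against 12.1 per kb for Cox6b2. Cox6a1 (2324 per kb), Cox8a (3819 per kb) and Ndufa4 (1013 per kb) had partners under the mean of 10, with a mean normalized count of 1.57 for the muscle form Cox6a2, 1.22 for the muscle form Cox8b and 0.487 for the hypoxia-linked Ndufa4l2. Those are the 3 symbols that the threshold left out, and the members just inside it were Ndufa11b at a mean of 11.8, Cox6b2 at 13.4 and Cox7a1 at 18.5. Of the genes that encode the same c-ring subunit of the ATP synthase, Atp5g3 stood at 1187 per kb, Atp5g2 at 365 per kb and Atp5g1 at 52.6 per kb. Cox4i1 (3090 per kb) and Cox7b (1239 per kb) were members, while their partners Cox4i2 and Cox7b2 were not among the gene symbols of the deposited counts.

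Reads of some members could be shared with other genes. Cox6c2, Ndufs6b and Ndufa11b are near copies of other members and are themselves annotated as processed pseudogenes. So are 8 of the 9 -ps genes, and the counting could have split the reads of such copies. More than 10% of the exon bases overlapped another annotated gene in 11 members, Atp5o the most (47.9%), then Ndufb6 (39.0%, with Smim27) and Ndufa13 (30.0%, with Tssk6), and whether the counting used strand is not given in the sources used here. Ndufb1-ps, which GENCODE draws as a noncoding RNA and the rule left out for its name, had 1228 to 1919 normalized counts, and Ndufab1, whose symbol the rule does not match, had 350 to 573.

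FO and MZ B cells are the main mature B cells of the spleen, the first recirculating through follicles and the second lying at the blood sinus, and their comparison shows whether the subsets differ in these genes. With both genotypes fitted together, 0 members were higher in FO and 6 were lower at the adjusted p alone. The 6 are 7.41% of the members, where 17.1% of all genes tested were lower in FO and 16.3% were higher by the same rule. With the 1.5-fold cutoff 0 members were called, against 18.4% of all genes in either direction. At an unadjusted p under 0.05 there were 17 members (3 higher and 14 lower in FO), which is 21.0% of them against 44.1% of all genes. DESeq2 and edgeR on the recovered reads put 5 and 7 members past the adjusted p alone, and neither called a member at 1.5-fold.

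Ndufa10, an accessory subunit of complex I, had 1307 and 1314 (WT) and 1403 and 1476 (cKO) normalized counts in FO, against 1786 and 1579 (WT) and 1824 and 1901 (cKO) in MZ B cells. Every FO library was below every MZ library. FO minus MZ on the log2 scale gave -0.36 (standard error 0.065, 1.29-fold higher in MZ, limma adjusted p = 0.0042), and it was -0.36 for the WT pair (limma adjusted p = 0.0358) and -0.37 for the cKO pair (limma adjusted p = 0.0277).

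Atp5pb, the b subunit in the stalk that holds the head of the ATP synthase, had 1867 and 1983 (WT) and 1847 and 2057 (cKO) normalized counts in FO, against 2407 and 2484 (WT) and 2599 and 2308 (cKO) in MZ B cells. Here too the FO and MZ libraries did not overlap. The log2 difference was -0.34 (standard error 0.069, 1.26-fold higher in MZ, limma adjusted p = 0.00772), with -0.35 between the WT libraries (limma adjusted p = 0.0489) and -0.33 between the cKO libraries (limma adjusted p = 0.0517). Of its exon bases 13.2% overlap genes on the other strand, Wdr77 among them.

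Ndufc2, a membrane-arm subunit of complex I, had 576 and 577 (WT) and 563 and 712 (cKO) normalized counts in FO, against 716 and 806 (WT) and 909 and 786 (cKO) in MZ B cells. The highest FO library (712) lay just below the lowest MZ library (716). Its log2 difference of -0.41 was the largest in size of all members (standard error 0.101, 1.33-fold higher in MZ, limma adjusted p = 0.0177), with a 95% interval from -0.64 to -0.17 that runs past 1.5-fold.

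Atp5g2, which encodes the c-ring subunit, had 571 and 503 (WT) and 554 and 542 (cKO) normalized counts in FO, against 603 and 667 (WT) and 771 and 680 (cKO) in MZ B cells. The subsets did not overlap, and the log2 difference was -0.32 (standard error 0.086, limma adjusted p = 0.0235). Ndufa8, a subunit of complex I on the side of the intermembrane space, had 609 and 711 (WT) and 600.1 and 688 (cKO) normalized counts in FO, against 744 and 789 (WT) and 814 and 782 (cKO) in MZ B cells, with a log2 difference of -0.27 (standard error 0.086, limma adjusted p = 0.0471). Sdhd, a membrane anchor of complex II, had 1325 and 1368 (WT) and 1396 and 1538 (cKO) normalized counts in FO, against 1528 and 1694 (WT) and 1817 and 1597 (cKO) in MZ B cells. Its cKO FO replicate 2 lay above WT MZ replicate 1, so the subsets overlapped, and the log2 difference was -0.24 (standard error 0.074, limma adjusted p = 0.0425). By leaving out single libraries the count of members past the adjusted p alone ranged from 2, without WT MZ replicate 2 or without cKO MZ replicate 1, to 13, without cKO FO replicate 2. Not all of these were lower in FO: without cKO FO replicate 1 there were 2 higher and 2 lower, and without WT FO replicate 2 there were 1 higher and 4 lower. Of the 6, Ndufa10 and Atp5pb stayed past it when any single library was left out, while the other 4 lost the call (adjusted p from 0.0521 to 0.148 by limma) without WT MZ replicate 2, cKO FO replicate 1 or cKO MZ replicate 1. Atp5g2 was also lost without WT FO replicate 2 or cKO FO replicate 2, Ndufa8 without WT FO replicate 1, WT MZ replicate 1 or cKO MZ replicate 2, and Sdhd without WT FO replicate 1, WT FO replicate 2 or cKO FO replicate 2. With cKO FO replicate 2 and cKO MZ replicate 1 both left out, the libraries in which the members stood highest, 0 members were past it, and the adjusted p was 0.0507 for Ndufa10, 0.0539 for Atp5pb, 0.0552 for Ndufc2, 0.144 for Ndufa8, 0.157 for Sdhd and 0.186 for Atp5g2.

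**Figure D2:**
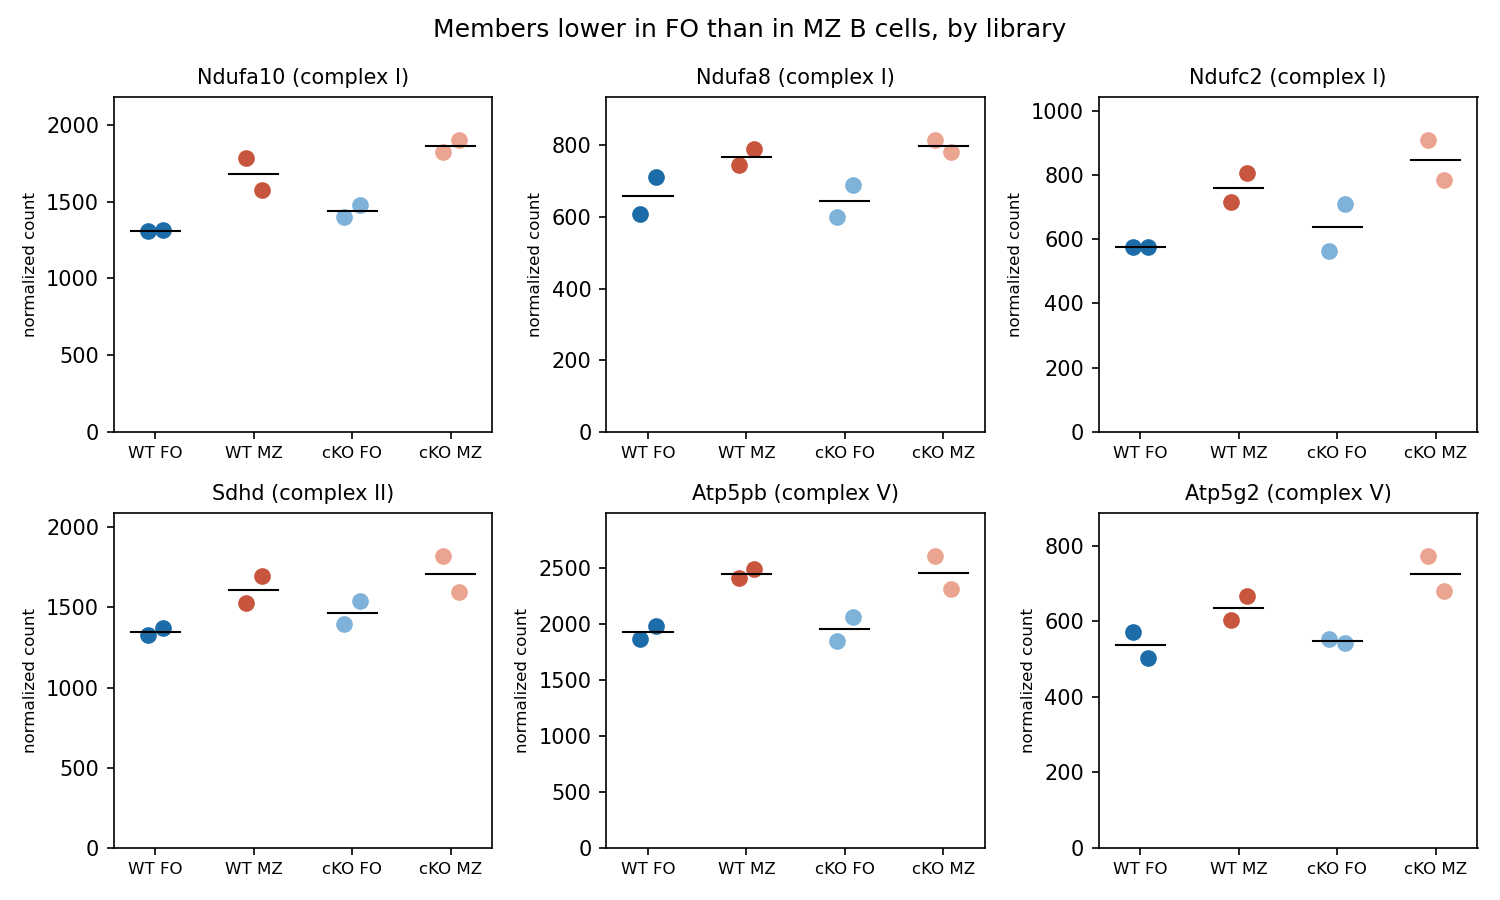
Normalized counts of the 6 members lower in FO than in MZ B cells, with a point for each library, a line at the mean of the 2 libraries of a group, and axes that start at 0. Ndufa10, Atp5pb, Ndufc2, Atp5g2 and Ndufa8 had all FO libraries below all MZ libraries, while Sdhd did not.

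In all, 6 members had every FO library below every MZ library (7.41%, against 18.6% of all genes tested), and they were Cox5a and those 6 without Sdhd. Another 3 had every FO library above every MZ library (3.70%, against 17.9% of all genes). These were Ndufs7, an iron-sulfur subunit of complex I (log2 difference 0.22, standard error 0.074, limma adjusted p = 0.0526), Uqcrc1, a core protein of complex III (0.18, standard error 0.073, limma adjusted p = 0.0974), and Cox6a1 (0.15, standard error 0.059, limma adjusted p = 0.0877), none past the adjusted p. Cox5a stood just outside it, with a log2 difference of -0.24 (standard error 0.077, limma adjusted p = 0.0505). Mki67, Top2a and the other cycling-cell markers, 5 in all, summed to 5246 to 9313 in MZ and 2942 to 3360 in FO B cells, with every MZ library above every FO library. Dendritic cell markers (5) summed to 189 to 257 in FO and 306 to 506 in MZ B cells, and NK cell markers (3) to 59.4 to 162 in FO and 350 to 448 in MZ B cells, mostly from Prf1. Their part in the differences between FO and MZ was not tested.

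By complex, the median log2 difference between FO and MZ was -0.02 for complex I, -0.06 for II, -0.13 for III, -0.08 for IV and -0.11 for V, against 0.00 over all genes tested. Single libraries moved these medians: without cKO FO replicate 1 they were 0.02, -0.01, -0.02, -0.02 and -0.07 in the same order, and without cKO FO replicate 2 -0.08, -0.12, -0.21, -0.13 and -0.15. Complex I was also above 0 without cKO MZ replicate 1 (0.01), complex II was 0.00 without WT FO replicate 1, and over the other libraries left out complexes I and II ranged from -0.07 to -0.02 and from -0.13 to -0.03. Complex III was -0.07 and complex IV -0.04 without cKO MZ replicate 1, and complex IV was -0.04 without WT FO replicate 2. The median over all members was -0.07, and -0.02 without cKO FO replicate 1, -0.12 without cKO FO replicate 2 and -0.03 without cKO MZ replicate 1. Members below 0 numbered 20 of 38 in complex I, 3 of 4 in II, 6 of 8 in III, 8 of 14 in IV and 12 of 17 in V, which is 60.5% of the members against 49.5% of all genes. The 95% interval of the difference lay within 1.5-fold in either direction for 75 of the 81 members (92.6%), against 44.5% of all genes, so a change of that size was not in the interval for most of the list. The 6 exceptions were Ndufc2, Atp5l, Cox6c2 and the members with the lowest counts, Ndufa11b, Cox6b2 and Cox7a1.

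Within complex I, the genes with the highest differences were Ndufs7 and Ndufb7 (0.17, limma adjusted p = 0.144) and those with the lowest Ndufc2 and Ndufa10. The core subunits Ndufv1, which binds NADH, and Ndufs1 had differences of -0.09 and 0.00. In complex II, Sdhb stood at 0.14, Sdhc at -0.06 and Sdha at -0.07, beside Sdhd. In complex III the ends were Uqcrc1 and the Rieske protein Uqcrfs1 (0.06), and Uqcrq (-0.25) and Uqcrh (-0.18). In complex IV they were Cox7a1 (0.22) and Cox6b2 (0.20), both with low counts and intervals past 1.5-fold, and Cox6c2 (-0.31) and Cox5a. Cox4i1, the regulatory subunit that binds ATP, stood at -0.20 (limma adjusted p = 0.093). In complex V, Atp5l (0.31, standard error 0.159, limma adjusted p = 0.169) and Atp5k (0.09) were highest, Atp5pb and Atp5g2 lowest, and the head subunits Atp5a1 and Atp5b lay at -0.04 and -0.06.

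**Figure D3:**
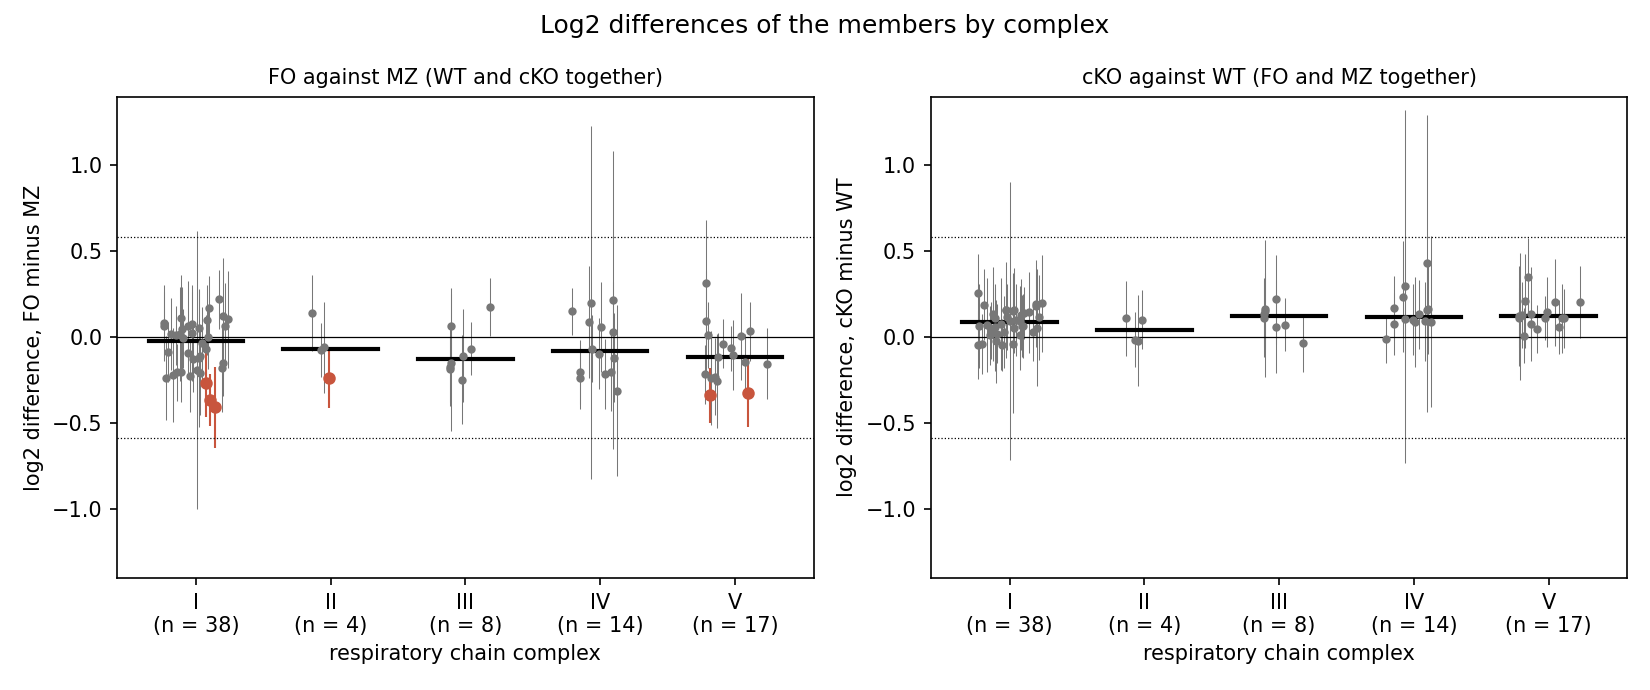
Log2 differences of the 81 members by complex, FO minus MZ on the left and cKO minus WT on the right, with 95% intervals, black lines at the median of each complex and dotted lines at 1.5-fold. The 6 larger red points passed the adjusted p alone and all lie below 0 on the left, and no point on the right passed it.

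Within each genotype fewer members passed. In WT, 0 were higher and 2 lower in FO at the adjusted p alone, Ndufa10 and Atp5pb, where 7.51% of all genes were higher and 9.41% lower, and 0 were called at 1.5-fold, against 12% of all genes. The count of 2 fell to 1 without WT MZ replicate 2 and to 0 without any other of the 8 libraries. In cKO, 0 were higher and 1 lower, Ndufa10, where 9.29% of all genes were higher and 10.3% lower, and 0 were called at 1.5-fold, against 13.7%. The count of 1 fell to 0 without cKO FO replicate 1, cKO MZ replicate 1 or cKO MZ replicate 2. The members' median in cKO was -0.08, and 0.06 without cKO FO replicate 1, 0.00 without cKO MZ replicate 1, -0.18 without cKO FO replicate 2 and -0.13 without cKO MZ replicate 2. No library enters both of these comparisons. The log2 differences of 64 of the 81 members had the same sign in WT and in cKO, 45 of them below 0, with Pearson's r = 0.42 and Spearman's rho = 0.65 across members, which are not independent of each other. Below 0 were 53 of the 81 in WT and 54 in cKO, and the share of all genes with the same sign was not counted. The interaction of genotype and subset was past the adjusted p alone for 0 members, and for 0% of all genes by either rule. At an unadjusted p under 0.05 there were 0 members, against 0.637% of all genes.

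The cKO was compared with WT to ask whether loss of TFII-I in B cells changes these genes. No member was past the adjusted p in FO B cells (0.0677% of all genes were, with the 1.5-fold cutoff as well), in MZ B cells (0.0339% by either rule) or with the subsets together (0.108% by either rule). At an unadjusted p under 0.05 there was 1 member in FO (1.23%, against 2.59% of all genes) and 1 in MZ (1.23%, against 4.04%). With the subsets together there were 2 (2.47%, against 6.63%). Neither DESeq2 nor edgeR put a member past the adjusted p. The 95% interval of the difference with the subsets together lay within 1.5-fold for 77 of the 81 members (95.1%), against 62.3% of all genes, and the 4 others were Ndufa11b, Cox6b2, Cox7a1 and Cox6c2.

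The members lay slightly above WT as a group. The median log2 difference between cKO and WT was 0.11 over the members and -0.01 over all genes, with 72 of the 81 members above 0 (88.9%, against 46.5% of all genes). It was 0.12 in FO and 0.10 in MZ B cells, and by complex 0.09 for I, 0.04 for II, 0.12 for III, 0.12 for IV and 0.12 for V, where all 17 members of complex V were above 0. The size of this difference depended on which cKO libraries were kept. The members stood highest in cKO FO replicate 2 and cKO MZ replicate 1, so leaving these out was bound to lower it. With cKO FO replicate 2 and cKO MZ replicate 1 left out, the median over the members was 0.02, against -0.01 over all genes, and by complex it was 0.00 for I, -0.05 for II, 0.00 for III, 0.03 for IV and 0.03 for V. Leaving out 1 library of the cKO gave 0.05 (FO replicate 2), 0.07 (MZ replicate 1), 0.17 (FO replicate 1) and 0.15 (MZ replicate 2). Over the 8 fits that each leave out a library the medians ran from 0.04 to 0.17 in complex I, from -0.02 (without cKO FO replicate 2) to 0.10 in II, from 0.05 to 0.18 in III, from 0.07 to 0.21 in IV and from 0.08 to 0.18 in V. In FO B cells alone the median of 0.12 became 0.00 without cKO FO replicate 2, 0.20 without cKO FO replicate 1 and 0.08 without WT FO replicate 2, and in MZ B cells alone the 0.10 became 0.02 without cKO MZ replicate 1 and 0.18 without cKO MZ replicate 2.

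In cKO FO, 79 of the 81 members were higher in replicate 2 than in replicate 1, by a median of 0.23 on the log2 scale, against 0.01 over all genes. In cKO MZ only 8 members were higher in replicate 2 than in replicate 1, and the median of replicate 2 minus replicate 1 was -0.16, against 0.01. In WT the corresponding medians over all members were 0.00 in FO and 0.02 in MZ B cells. Of the 81 members, 43 and 45 were higher in replicate 2. By complex, WT FO gave 0.02 for I, 0.12 for II, -0.15 for III, -0.22 for IV and -0.08 for V. Shifts of opposite sign therefore lay behind the 0.00. WT MZ gave 0.04, 0.13, -0.07, -0.10 and 0.02 in the same order. In cKO every complex shifted the same way, by 0.19 to 0.27 in FO and by -0.20 to -0.13 in MZ B cells. Short genes outside the list, 1674 with at most 1000 bases of exon, differed between the replicates by 0.05 in cKO FO and by -0.04 in cKO MZ, and the members have a median exon length of 1569 bases against 3683 for all genes tested. The summed normalized count of the members in FO B cells was 122314 and 120859 (WT) and 121402 and 139295 (cKO), and in MZ B cells 128116 and 129063 (WT) and 142679 and 131178 (cKO). In share of all counts it ran from 0.501% in WT FO replicate 1 to 0.640% in cKO MZ replicate 1.

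**Figure D4:**
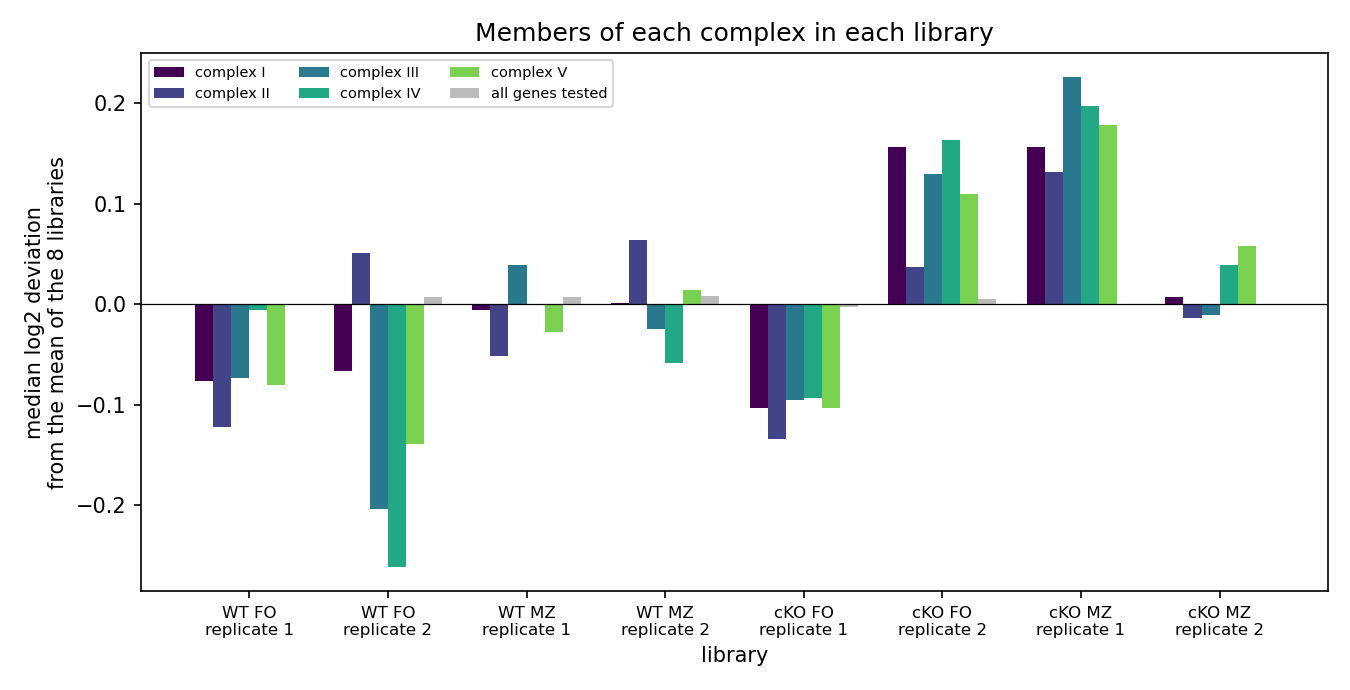
Median deviation of the members of each complex from their mean over the 8 libraries, on the log2 scale, by library, with grey bars for all genes tested. The bars of cKO FO replicate 2 and cKO MZ replicate 1 are above 0 for all 5 complexes, the members' median being 0.15 and 0.16 there, while the grey bars stay between -0.003 and 0.008. In WT FO replicate 2 the bars are at -0.07 for complex I, 0.05 for II, -0.20 for III, -0.26 for IV and -0.14 for V.

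Erythroid markers were also highest in cKO MZ replicate 1 and cKO FO replicate 2, while granulocyte markers stood out in cKO MZ replicate 1 alone. The 6 erythroid markers (globins and Alas2 among them) summed to 13304 normalized counts in cKO MZ replicate 1 and to 1007 in cKO FO replicate 2, against 798 in cKO MZ replicate 2, 86.2 in cKO FO replicate 1 and 25.9 to 328 in the WT libraries, and the 7 granulocyte markers to 1749 in cKO MZ replicate 1 and 22.8 to 100.02 elsewhere. No marker of any list was at 0 in all FO, all MZ, all WT or all cKO libraries. Their part in the members' difference between cKO and WT was not tested. In bulk RNA, fewer cells of a type and less RNA per cell cannot be told apart. The erythroid and granulocyte sums overlapped between FO and MZ B cells, as did the 6 T cell markers (26.9 to 75.2), the 7 macrophage markers (560 to 1286), the 5 plasma cell markers (14865 to 41216) and the 5 B cell markers (156421 to 223361).

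Atp5md, a small subunit at the dimer interface of the ATP synthase, had the smallest p of cKO against WT, with 636 and 532 (WT) and 647 and 778 (cKO) normalized counts in FO, against 685 and 619 (WT) and 881 and 857 (cKO) in MZ B cells. Its values overlapped between genotypes, and the log2 difference was 0.35 (standard error 0.097, unadjusted p = 0.00715 and adjusted p = 0.6 by limma). Ndufa6, a complex I subunit that binds acyl carrier protein, had 1614 and 1493 (WT) and 1703 and 2184 (cKO) normalized counts in FO, against 1516 and 1519 (WT) and 1893 and 1624 (cKO) in MZ B cells. All its cKO libraries lay above all WT libraries, with a log2 difference of 0.26 (standard error 0.095, limma adjusted p = 0.702). The catalytic subunit Atp5b was the other member with that separation, at 12827 to 13267 normalized counts in WT and 13412 to 14959 in cKO (log2 difference 0.11, standard error 0.056, limma adjusted p = 0.789). These 2 are 2.47% of the members, where 1% of all genes had every cKO library above every WT library and 1.09% had every cKO library below, which 0 members had.

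Ndufa1, Ndufb11 and Cox7b lie on the X chromosome, and their log2 differences between cKO and WT were 0.15, 0.10 and 0.09. The other members with the largest differences between cKO and WT were not past the adjusted p either. They were Ndufs5 in complex I (0.20), Sdhb (0.11) and Sdhd (0.10) in II, Uqcrq (0.22) and Uqcr11 (0.17) in III, Cox7a1 (0.43) and Cox6b2 (0.30) in IV and Atp5mpl (0.21) in V with limma adjusted p between 0.791 and 0.932. Cox7a1 had 29.9 and 12.4 (WT) and 15.7 and 21.1 (cKO) normalized counts in FO, against 15.4 and 8.15 (WT) and 25.9 and 19.6 (cKO) in MZ B cells, so the libraries of WT FO alone differed by more than the mean difference between genotypes. Its 95% interval ran from -0.44 to 1.30. The differences in FO and in MZ B cells share no library either, and 63 of the 81 members had the same sign in both, 60 of them above 0, with Pearson's r = -0.14 and Spearman's rho = 0.18 across members. Above 0 were 66 of the 81 members in FO and 72 in MZ B cells. With those counts most members would share a sign without any link between the 2 differences. The share of all genes with the same sign was not counted.

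**Figure D5:**
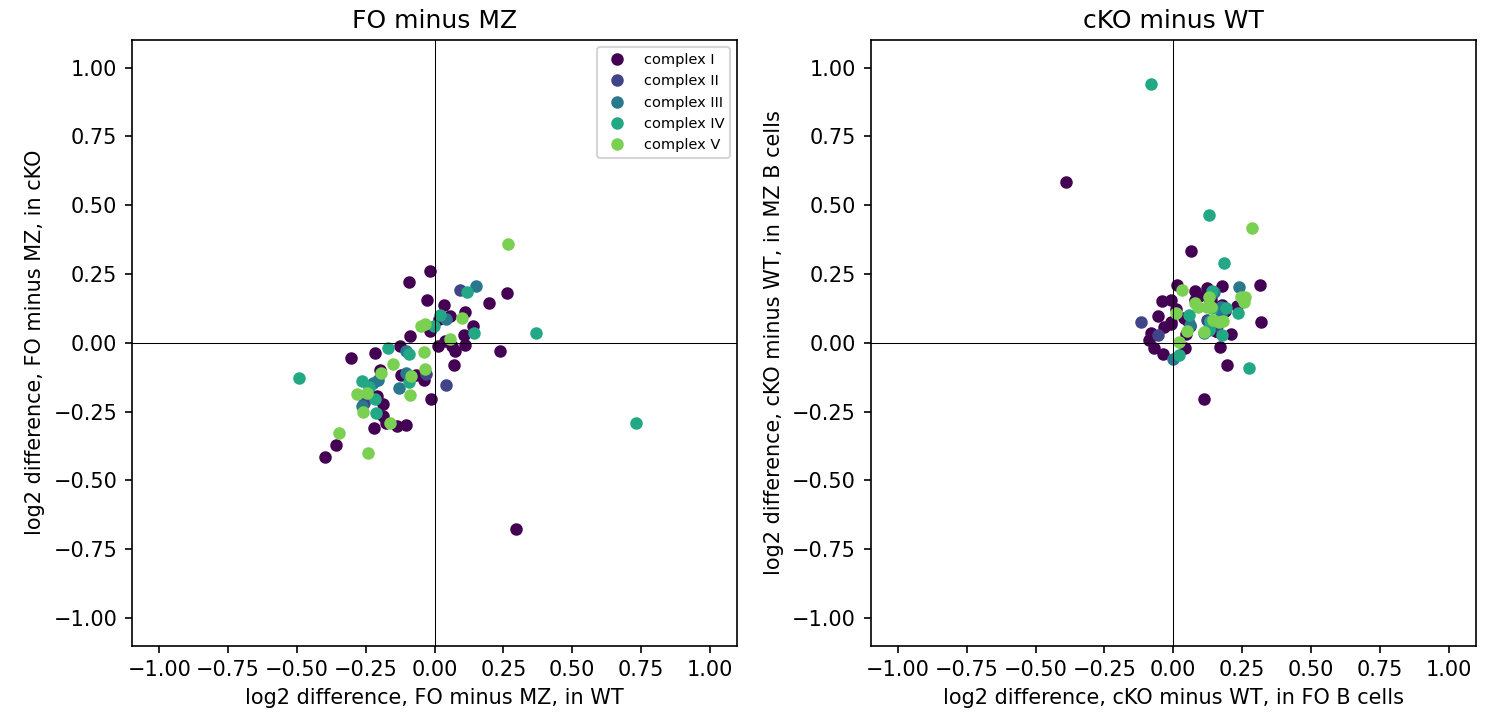
Log2 differences of each member in 2 comparisons that share no library, FO minus MZ in WT against cKO on the left and cKO minus WT in FO against MZ B cells on the right, coloured by complex. On the left 45 members lie below 0 on both axes, and on the right 60 lie above 0 on both, and the points of a comparison share its libraries.

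The other genes of the same pathway were counted by list, at the adjusted p alone and with both genotypes together, the rule by which 17.1% of all genes were lower and 16.3% higher in FO. Of the 13 subunits that the mitochondrial genome encodes, 11 were tested, all 11 were below 0 in FO minus MZ (median -0.31) and 4 passed: mt-Nd6 (-0.43, limma adjusted p = 0.00358), mt-Nd5 (-0.41, limma adjusted p = 0.00944), mt-Nd4 (-0.33, limma adjusted p = 0.0188) and mt-Nd2 (-0.32, limma adjusted p = 0.0445), all parts of complex I. Mt-Nd6 had 17495 and 15180.0 (WT) and 17382 and 16611 (cKO) normalized counts in FO, against 21958 and 21414 (WT) and 24708 and 21958 (cKO) in MZ B cells, so every MZ library was above every FO library. This gene is read from the strand opposite to the other Nd genes, and without strand its reads and those of opposite transcripts cannot be told apart. Among 44 assembly factors, 10 were lower and 3 higher in FO (median -0.12), with Foxred1 (-0.48) and Sdhaf2 (-0.43), which help to build complexes I and II, and Bcs1l (-0.49), which inserts the Rieske protein into complex III, lower, and Coa7 (0.72), of complex IV assembly, higher. Of 77 genes of the mitochondrial ribosome, 5 were lower and 2 higher in FO (median -0.07), Mrpl52 (-0.74), Mrpl45 (-0.28) and Mrpl17 (-0.51) among the lower and Mrpl38 (0.54) higher.

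Of 10 genes of the electron carriers ubiquinone and cytochrome c, Coq2 (-0.46) and Coq9 (-0.36) were lower and Coq6 (0.31) was higher in FO, and of 13 genes of the citric acid cycle Suclg2 (-0.35), Suclg1 (-0.30) and Dlst (-0.37) were lower and Idh3g (0.22) was higher. Among 13 regulators of mitochondrial gene expression, 5 were higher and 1 was lower in FO. The log2 difference was 0.52 for Nrf1 (limma adjusted p = 0.00125), 0.42 for Gabpb1, a subunit of GABP (limma adjusted p = 0.00339), 0.36 for Yy1 (limma adjusted p = 0.00447) and -1.61 for Myc, which drives growth (limma adjusted p = 0.00153). Nrf1 had 2028 and 1813 (WT) and 1915 and 1911 (cKO) normalized counts in FO, against 1462 and 1368 (WT) and 1180.1 and 1338 (cKO) in MZ B cells. Between cKO and WT with the subsets together, 0 genes of these lists passed, and the medians were 0.05 for the mitochondrially encoded subunits, 0.06 for the mitochondrial ribosome, 0.04 for the assembly factors, 0.01 for the electron carriers, 0.02 for the citric acid cycle and -0.04 for the regulators, all under the 0.11 of the members.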

How the data were processed

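Total RNA (100 ng) depleted of ribosomal RNA was sequenced by the authors as 50-base single reads from 8 libraries, aligned with HISAT2 to mm10, counted on genes with featureCounts or HTSeq and scaled by DESeq2. The deposited signal is 1 table of normalized counts from the authors, that is, reads per gene over a size factor for the library, and multiplying back gave whole reads for 100% of values (tolerance 0.01). The table holds 27928 genes, after 256343 blank lines were left out. Reads on genes ran from 21546552 to 25083552 per library, so counting error is small for all but the lowest members. Gene lengths, coordinates and overlaps are from GENCODE M21 for GRCm38, in which all 81 members were found.

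Log2(normalized count + 1) of the 14761 genes with a mean of at least 10 entered 1 model of the 4 group means in limma 3.58.1 (eBayes with trend; R 4.3.3). The alternatives changed the pseudocount to 0.5, dropped the filter or the fold cutoff, normalized by quantiles, fitted just the libraries of a comparison, blocked on the replicate number, left out each library, or tested the recovered reads in DESeq2 1.42.0 and in edgeR 4.0.16. Leaving out cKO FO replicate 2 with cKO MZ replicate 1, the block with the cKO MZ numbers exchanged, and the counts at the adjusted p alone under each alternative were added after seeing the data. The scripts were tested on simulated data. The named genes are the members past the adjusted p, those with the largest differences and the extreme levels of each complex, the catalytic and core subunits, the members with tissue-restricted partners and those at the threshold of the mean, and in the other lists up to 4 genes by smallest p. The members and all lists were chosen with earlier results of these data known, and mt-Cytb was added to its list after the table's spelling was seen. The motifs were chosen from knowledge of these promoters, as a description. The 8 ATAC-seq samples were not analysed here, and values of some single genes are not reported here.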

Additional observations from a re-analysis of the deposited data

Results flagged for a closer look

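Ndufb2, a small membrane-arm subunit of complex I, moved in opposite directions in the 2 genotypes and in the 2 subsets, with no overlap between the libraries compared. It had 312 and 327 (WT) and 336 and 355 (cKO) normalized counts in FO, against 335 and 347 (WT) and 297 and 295 (cKO) in MZ B cells, so FO was below MZ in WT and above MZ in cKO, and cKO was above WT in FO and below WT in MZ. The interaction of genotype and subset was 0.31 on the log2 scale (standard error 0.170, unadjusted p = 0.103 and adjusted p = 1 by limma), so the opposite directions were not past the test of the difference itself. Ndufb2 was picked by these same values. No other member showed this pattern, and how many of all genes did was not counted.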

How the results depend on the processing

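No member was called at 1.5-fold in any of the 7 comparisons under any of the 116 alternatives run. At the adjusted p alone, 0 members passed for cKO against WT and for the interaction under every setting, and the counts for FO against MZ moved. With the genotypes together (6 in the limma fit) they were 11 with quantile normalization and 0 with cKO FO replicate 2 and cKO MZ replicate 1 both left out, and ranged from 2 to 13 when each library was left out. In WT (2) they were 0 without the filter on low counts, 1 with quantile normalization, 0 in a fit of only the libraries compared and 0 with both cKO libraries left out, and ranged from 0 to 1. In cKO (1) they were 0 without the filter, 2 with quantile normalization, 2 in a fit of only the libraries compared, 2 with DESeq2, 2 with edgeR and 0 with both libraries left out, and ranged from 0 to 1. The cause was not tested. Without the fold cutoff the counts were 6, 2 and 1. Of 140 medians by complex 139 moved by less than the spread between replicates, and that of complex III between cKO and WT moved from 0.12 to 0.00 (-0.0027) with both libraries left out. That spread ran from 0.0902 in complex V to 0.141 in complex IV. It was larger than most of the medians, so a change of sign could count as no move. Dropping the filter or adding a replicate block leaves the fitted differences as they were, so those alternatives could not move a median. None of the differences of the 6 members called changed sign in any of these settings.

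The deviations of same-numbered libraries from their group means correlated at 0.59 (WT FO with WT MZ), 0.29, 0.16, -0.17, -0.30 and 0.00 over the 6 pairs of groups, the last 3 being the pairs with cKO MZ. The pairing was therefore not borne out over all groups, and the pairs above 0.1 are a hint from the data that the numbers mean something in WT and cKO FO, which the labels do not say. With the replicate number as a block, 7, 2 and 1 members passed the adjusted p alone in the 3 comparisons of FO with MZ. With the cKO MZ numbers exchanged in the block, they were 14 (2 higher and 12 lower in FO), 4 and 6.

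The 2 libraries per group limit the precision of these values, and counting error adds to it in Ndufa11b, Cox6b2 and Cox7a1, the members with the lowest counts.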
